A study of Homo sapiens with 282 samples.

Results

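The genes described here are 42 genes of the Fanconi anaemia pathway, homologous recombination and the DNA damage checkpoint, taken as a list of symbols and read with 1 probe set per gene, chosen by its mean level across the arrays (the highest was kept). All 42 were on the array, among 18239 genes tested. They were measured in OCI-Ly3 cells, a human diffuse large B cell lymphoma line, from total RNA hybridised to 282 Affymetrix HT HG-U219 arrays. One well of cells gave 1 array, and every group came from this 1 cell line.

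The treated groups were 14 compounds, all harvested at 6, 12 and 24 h. Compounds that act on DNA or on nucleotide supply were Camptothecin, a topoisomerase I poison (0.01 and 0.31 uM), Doxorubicin hydrochloride, an anthracycline that poisons topoisomerase II (0.03 and 0.101 uM), Etoposide, a topoisomerase II poison (0.811 and 0.812 uM), Aclacinomycin A, another anthracycline (0.036 and 0.105 uM), Mitomycin C, a DNA crosslinker (0.553 and 2.56 uM), and Methotrexate, an antifolate (100 uM only). The others were Cycloheximide, a translation inhibitor (0.264 and 5 uM), H-7, Dihydrochloride, a kinase inhibitor (12.4 and 20.2 uM), Trichostatin A, a histone deacetylase inhibitor (0.114 and 0.143 uM), Rapamycin, an mTOR inhibitor (13.8 and 22 uM), Geldanamycin, an HSP90 inhibitor (0.001 and 0.032 uM), Blebbistatin, a myosin II inhibitor (10 and 100 uM), Monastrol, a kinesin-5 inhibitor (50 and 100 uM), and Vincristine, a tubulin binder (0.005 and 0.01 uM). Each concentration had 3 arrays at a time, and Methotrexate had 6, with every replicate number used for a pair of arrays. At each time there were also 8 arrays of cells with 1% DMSO, the vehicle against which every compound was compared, and 2 arrays of cells in medium. Nothing in the labels says that replicates came from separate cultures, so the p-values measure the spread between wells, which may be technical.

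As background, DNA crosslinks are detected by FANCM and the Fanconi core complex (FANCB, FANCC, FANCE, FANCF, FANCG and FANCL), which with the ubiquitin-conjugating enzyme UBE2T marks FANCI and its partner, after which SLX4 and the ERCC1-ERCC4 nuclease unhook the lesion. Breaks are resected by the MRE11-RAD50-NBN complex and EXO1, the single strands are coated by RPA, and BRCA1 with BARD1, PALB2, BRIP1 and the paralogs RAD51C, RAD51D, XRCC2 and XRCC3 bring in the recombinase for strand exchange. ATM and ATR with ATRIP, TOPBP1 and CLSPN switch on CHEK2 and CHEK1, and many of these genes are transcribed most in S phase under E2F factors, in cycling B cells as elsewhere.

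Because E2F and CCAAT elements are well known in promoters of S phase genes, promoter windows of 6 members are shown, from 250 bases before to 50 after a RefSeq transcription start (GRCh38.p14). MSH6, FANCL and MRE11 stand for members that fell with 5 or 6 compounds at 6 h, RAD51C for those that rose with most, and EXO1 and CLSPN, chosen after their values were seen, for those that rose with Methotrexate at 24 h. Capitals mark a match to an E2F motif (TTTCCCGC, TTTCGCGC, TTTGCCGC or TTTGGCGC) or to CCAAT, read on either strand, so that GCGGGAAA and ATTGG are matches on the opposite strand. One window is shown per gene, though EXO1, MSH6 and RAD51C have more. For EXO1 and MSH6 it is the window with matches, and their other windows have no match to either motif. No RAD51C window has a match.
EXO1 (chr1:241847954-241848253, plus strand): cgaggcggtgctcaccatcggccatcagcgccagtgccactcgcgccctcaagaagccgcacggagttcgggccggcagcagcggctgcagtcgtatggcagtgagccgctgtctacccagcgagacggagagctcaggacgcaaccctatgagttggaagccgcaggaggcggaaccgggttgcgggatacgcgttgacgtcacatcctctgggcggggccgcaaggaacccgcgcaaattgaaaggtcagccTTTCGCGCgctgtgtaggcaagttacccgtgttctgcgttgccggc
CLSPN (chr1:35769929-35770228, minus strand): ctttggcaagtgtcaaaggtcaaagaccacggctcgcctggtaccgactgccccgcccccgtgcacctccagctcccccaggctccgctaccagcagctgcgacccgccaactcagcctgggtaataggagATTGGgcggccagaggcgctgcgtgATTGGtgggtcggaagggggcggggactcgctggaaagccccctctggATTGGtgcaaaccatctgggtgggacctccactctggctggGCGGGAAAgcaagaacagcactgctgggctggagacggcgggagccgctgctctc
MSH6 (chr2:47782895-47783194, plus strand): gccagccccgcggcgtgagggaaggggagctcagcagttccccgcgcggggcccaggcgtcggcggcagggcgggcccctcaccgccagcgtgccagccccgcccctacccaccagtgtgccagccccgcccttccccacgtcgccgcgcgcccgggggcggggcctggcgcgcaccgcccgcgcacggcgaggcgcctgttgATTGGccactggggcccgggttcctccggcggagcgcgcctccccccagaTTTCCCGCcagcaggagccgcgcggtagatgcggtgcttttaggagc
FANCL (chr2:58241276-58241575, minus strand): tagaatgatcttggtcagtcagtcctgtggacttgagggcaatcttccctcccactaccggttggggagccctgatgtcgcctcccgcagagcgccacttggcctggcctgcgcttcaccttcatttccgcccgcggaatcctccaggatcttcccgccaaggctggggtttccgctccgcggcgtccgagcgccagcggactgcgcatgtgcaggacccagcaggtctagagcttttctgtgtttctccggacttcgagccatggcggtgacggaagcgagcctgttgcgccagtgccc
MRE11 (chr11:94493795-94494094, minus strand): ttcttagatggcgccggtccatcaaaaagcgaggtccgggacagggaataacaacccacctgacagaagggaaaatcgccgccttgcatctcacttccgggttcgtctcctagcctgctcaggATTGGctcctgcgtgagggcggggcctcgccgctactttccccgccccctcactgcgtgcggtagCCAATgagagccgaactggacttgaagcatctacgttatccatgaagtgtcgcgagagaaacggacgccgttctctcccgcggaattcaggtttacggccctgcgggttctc
RAD51C (chr17:58692323-58692622, plus strand): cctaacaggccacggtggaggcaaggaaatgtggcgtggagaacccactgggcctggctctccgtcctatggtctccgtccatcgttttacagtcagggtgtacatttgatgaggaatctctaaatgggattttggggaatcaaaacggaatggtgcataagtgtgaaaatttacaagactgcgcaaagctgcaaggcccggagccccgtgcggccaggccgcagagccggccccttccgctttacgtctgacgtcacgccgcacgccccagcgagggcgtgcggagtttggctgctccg

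Of the 42 members 36 had a window. An E2F match lay in the windows of 8 of these 36, namely TOPBP1, CLSPN, EXO1, XRCC2, FANCC, RMI1, MSH6 and PMS2, and in 3.99% of the 27305 genes with a window (3.31% of 35116 windows). CCAAT lay in windows of 21 of the 36 members and in 39.7% of all genes with a window (34.6% of windows). Where a gene had several windows, a match in any of them counted. Among the members called higher with Methotrexate at 24 h with all arrays, EXO1, CLSPN and XRCC2 had an E2F match. RAD51AP1 and BRIP1, called higher too, had none. Letters that match are a description of these windows and are not shown to be bound sites.

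The arrays differed in quality by time. An array was called low-signal where the upper quartile of its log2 values was under 8 or its ACTB 3' probe set exceeded the 5' one by over 2, a sign of poor RNA. None of the 94 arrays was low-signal at 6 h, against 31 of 94 at 12 h, 4 of them DMSO, and 17 of 94 at 24 h, 1 of them DMSO replicate 7. For this reason the results at 6 h come first, and those at 24 h are given with and without these arrays. Among B cell markers, IRF4 averaged 13.16 in DMSO at 6 h, in the 99.4th percentile of the genes, and PAX5 averaged 7.23, while MS4A1, CD79A, CD79B and CD22 lay between 4.64 and 5.02, below the median gene. The 15 measured markers of T, myeloid, epithelial and fibroblast cells averaged between 3.64 and 6.40 in DMSO at 6 h, none above the median gene. The members' mean levels in DMSO at 6 h ran from 4.34 (PMS2) to 11.29 (RPA2), with SDs of 0.03 to 0.26 over the 8 wells, and 16 members had a single probe set. PMS2 and CHEK2 have near-identical copies elsewhere in the genome, so their values may mix in signal from those copies.

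At 6 h more members fell than rose with 5 of the 6 compounds that changed most genes, Cycloheximide being the exception, and members rose with Mitomycin C. Values throughout are log2 differences, compound minus DMSO, from limma on all arrays of the time, and a gene is called where its Benjamini-Hochberg adjusted p over the 18239 genes is under 0.05. At the higher concentrations 180 of 588 member-compound pairs were called, 61 higher and 119 lower, in 13 of the 14 compounds. Camptothecin called 36 of the 42 members (46.9% of all genes), H-7 31 (50.0%), Trichostatin A 23 (44.7%), Cycloheximide 21 (33.4%), Rapamycin 20 (26.6%) and Geldanamycin 13 (16.5%). Mitomycin C called 10 (2.97%), Monastrol 9 (7.59%), Doxorubicin 8 (7.14%), Etoposide 4 (4.57%) and Methotrexate 3 (1.75%). Blebbistatin called only BRIP1 (2.59%), Vincristine only FANCI (0.949%) and Aclacinomycin A none (0.773%), in limma. Each of the 42 members was called with 1 to 8 compounds, 10 of them only lower, 1 only higher (RMI1) and 31 in both directions. All these comparisons share the same 8 DMSO arrays. The share of all genes called with as many compounds was not counted, nor that of genes whose treated and DMSO wells do not overlap. Members with values per array were mostly picked by their call on the same values, so wells that do not overlap are no separate support.

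**Figure D1:**
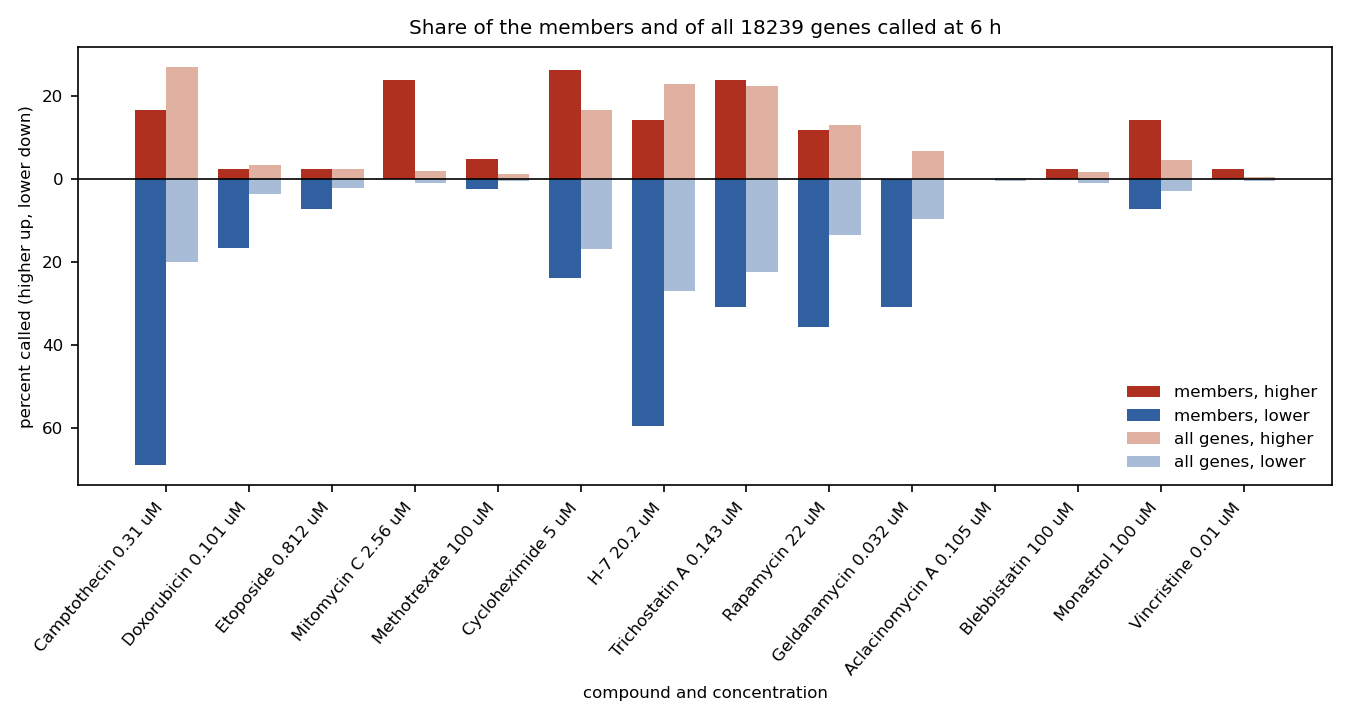
Share of members and of all genes called at 6 h (percent, higher above the axis and lower below it) for the higher concentration of each compound, as bars from 0. Camptothecin and H-7 had 29 and 25 of 42 members lower, where 19.9% and 27% of all genes were lower, and Mitomycin C had 10 of 42 higher, where 1.88% of all genes were.

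**Figure D2:**
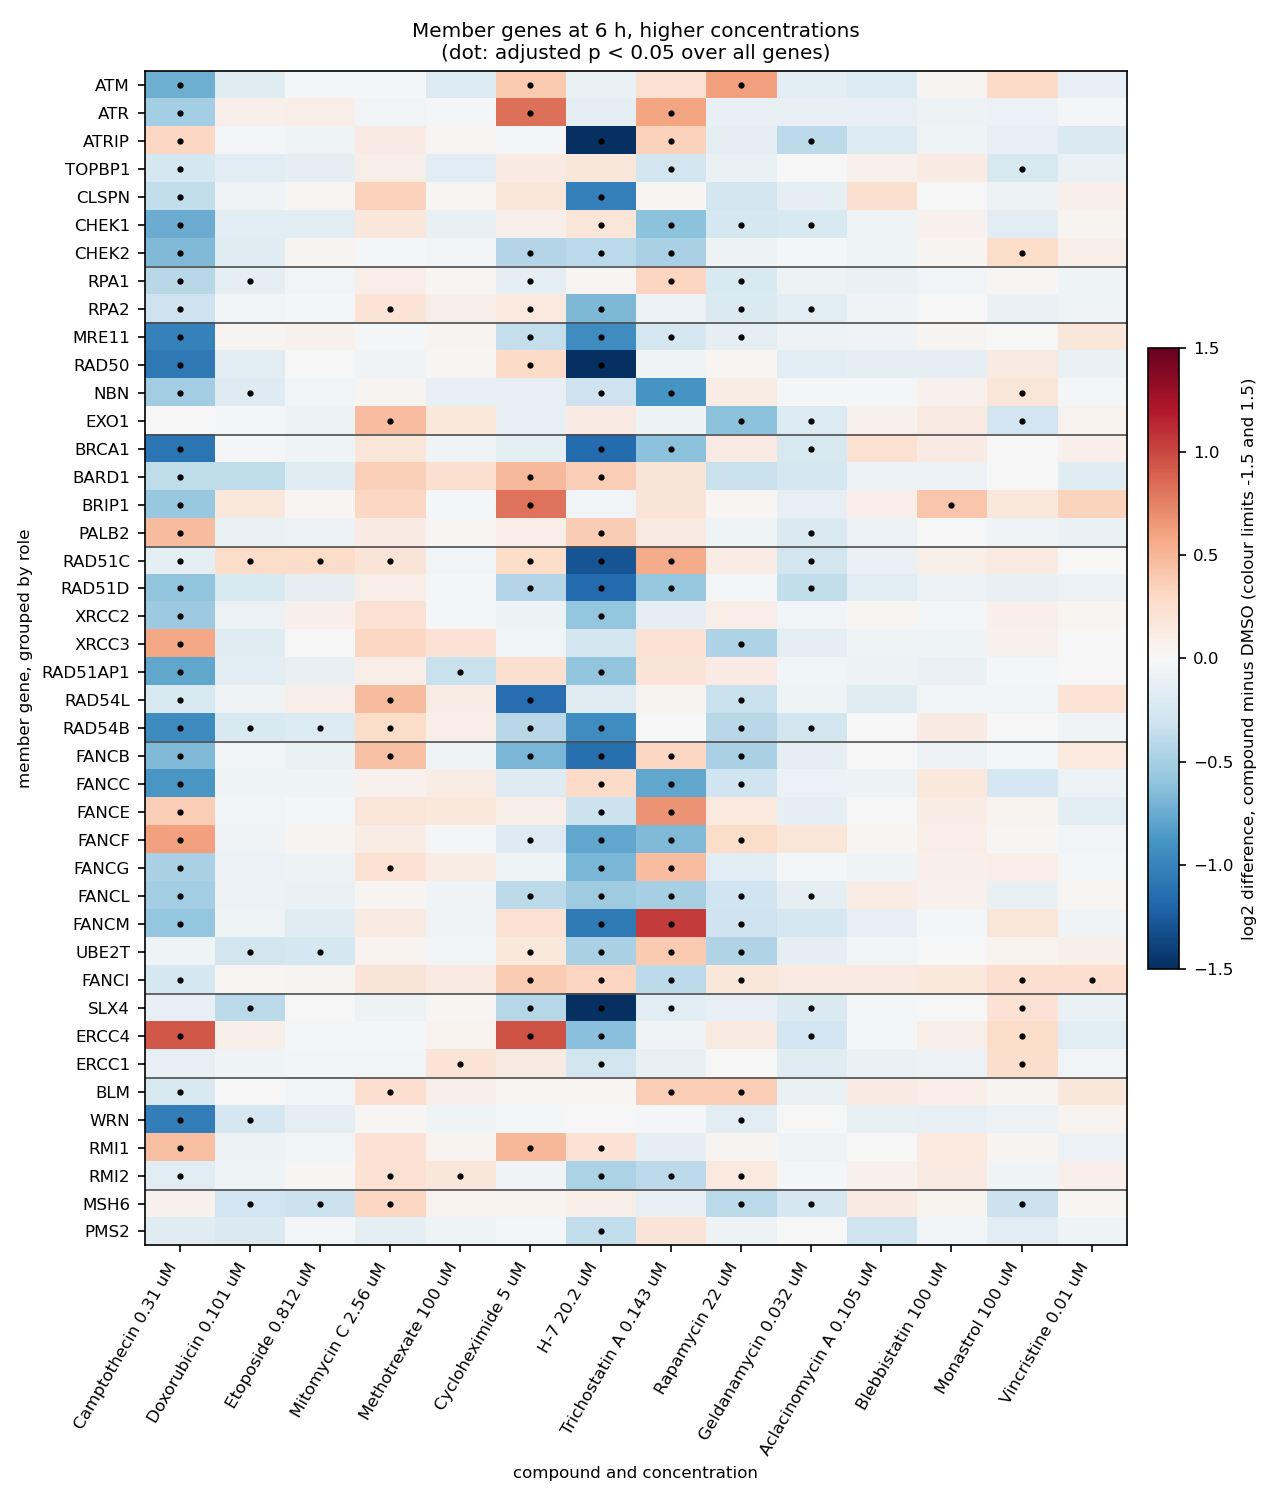
Log2 difference, compound minus DMSO, of the 42 members (rows, grouped by role) at 6 h with the higher concentration of each compound (columns); a dot marks an adjusted p under 0.05. The Camptothecin and H-7 columns are mostly blue, with a low of -1.73 for SLX4 with H-7, and the Aclacinomycin A column has no dot.

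Camptothecin at 0.31 uM lowered 29 members at 6 h and raised 7. The median member difference was -0.37, where the median over all genes was 0.06, and 19.9% of all genes were called lower and 27% higher. By role, 6 of the 7 checkpoint kinases and partners fell, as did 6 of the 7 recombinase paralogs and partners, 6 of the 9 Fanconi core, UBE2T and FANCI genes, 3 of the 4 resection genes and both RPA genes. BRCA1, the ubiquitin ligase that licenses recombination, had 7.68, 7.85 and 7.74 on the RMA log2 scale in Camptothecin wells, against 8.75, 8.83 and 9.05 (lowest, median and highest) in DMSO. The groups did not overlap, and BRCA1 was 2.14-fold lower (difference -1.10, SE 0.08, limma adjusted p = 8.4e-22). RAD50, the ATPase of the break-end complex, had 7.47, 7.16 and 7.54 in Camptothecin and 8.36, 8.44 and 8.72 in DMSO, a difference of -1.07 (SE 0.07). Its nuclease partner MRE11 had 8.57, 8.44 and 8.51 in Camptothecin and 9.46, 9.51 and 9.60 in DMSO, a difference of -1.01 (SE 0.06). WRN, a RecQ helicase, had 7.77, 7.79 and 7.79 in Camptothecin and 8.72, 8.84 and 8.93 in DMSO, a difference of -1.04 (SE 0.06). All 3 treated wells lay below all 8 DMSO wells for each of these genes, and likewise for RAD54B, a translocase of recombination, at -0.94 (limma adjusted p = 4.42e-24).

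The members that Camptothecin raised were ERCC4, FANCF, XRCC3, PALB2, RMI1, FANCE and ATRIP. ERCC4, the nuclease subunit that cuts beside crosslinks, had 9.24, 9.14 and 9.26 in Camptothecin, against 8.14, 8.26 and 8.50 in DMSO, and was 1.9-fold higher with no overlap (difference 0.93, SE 0.09, limma adjusted p = 1.38e-15). FANCF, an adaptor of the Fanconi core, had 8.82, 8.77 and 8.93 in Camptothecin and 8.12, 8.20 and 8.40 in DMSO, a difference of 0.62. XRCC3, PALB2 and RMI1 differed by 0.58, 0.47 and 0.45. EXO1, UBE2T, MSH6, PMS2, SLX4 and ERCC1 were not called with Camptothecin. In the same wells all 6 p53 targets measured (CDKN1A, MDM2, TP53I3, SESN1, BBC3 and GDF15) were called higher, with a median of 1.17, and so were 8 of 10 S phase genes, with a median of 0.43. The part of either list in the members' change was not tested.

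H-7 at 20.2 uM gave the 3 largest falls of any member and compound at 6 h, with 25 lower and 6 higher, a median of -0.39 where all genes had 0.03, and 27% of all genes lower and 23% higher. SLX4, the scaffold for crosslink nucleases, had 6.88, 7.13 and 7.13 in H-7, against 8.58, 8.82 and 8.87 in DMSO, 3.32-fold lower (difference -1.73, SE 0.06, limma adjusted p = 1.66e-40). RAD50 had 7.09, 6.56 and 6.92 in H-7 and 8.36, 8.44 and 8.72 in DMSO, a difference of -1.61. ATRIP, the partner that brings ATR to coated single strands, had 6.42, 6.35 and 6.32 in H-7 and 7.75, 8.03 and 8.11 in DMSO, a difference of -1.60. No H-7 well reached the DMSO range for any of these 3 genes. RAD51C differed by -1.30, RAD51D by -1.16, BRCA1 by -1.16 and FANCB by -1.13. Among Fanconi core, UBE2T and FANCI genes 7 of 9 fell and 2 rose, and all 3 crosslink nuclease genes fell. The 6 members that rose did so by less, led by PALB2 at 0.38 and BARD1 at 0.37, and the 3 H-7 wells of BARD1 (8.10, 7.81 and 7.68) overlapped its DMSO wells (7.13, 7.50 and 7.89).

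Trichostatin A at 0.143 uM raised 10 of the 42 members and lowered 13, with a median of -0.03, where 22.3% of all genes were higher and 22.4% lower. The share of members higher was near that of all genes. Of the 9 Fanconi core, UBE2T and FANCI genes 5 rose and 4 fell. FANCM, the translocase that finds stalled forks, had 8.42, 8.26 and 8.32 in Trichostatin A, against 7.04, 7.33 and 7.40 in DMSO, and was 2.07-fold higher (difference 1.05, SE 0.11, limma adjusted p = 1.11e-13). FANCE rose by 0.67, ATR by 0.59, RAD51C by 0.55 and FANCG by 0.47. NBN, the regulatory subunit of the break-end complex, had 9.49, 9.45 and 9.45 in Trichostatin A and 10.24, 10.36 and 10.51 in DMSO, a difference of -0.88 (SE 0.06). FANCC fell by 0.78 on the log2 scale, FANCF by 0.67, BRCA1 by 0.62 and CHEK1 by 0.61. For the genes named in these sentences the treated and DMSO wells did not overlap.

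Cycloheximide at 5 uM raised 11 members and lowered 10 (16.5% and 16.8% of all genes). RAD54L, a translocase of strand exchange, had 6.73, 6.82 and 6.68 in Cycloheximide, against 7.69, 7.87 and 8.10 in DMSO, 2.21-fold lower (difference -1.14, SE 0.10, limma adjusted p = 4.9e-18). FANCB fell by 0.69, RAD51D by 0.44, CHEK2 by 0.43 and SLX4 by 0.43 on the log2 scale. ERCC4 had 9.11, 9.42 and 9.19 in Cycloheximide and 8.14, 8.26 and 8.50 in DMSO, a rise of 0.96, and the kinase ATR rose by 0.83, the helicase BRIP1 by 0.81, RMI1 by 0.50 and BARD1 by 0.48. These groups did not overlap.

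Rapamycin at 22 uM lowered 15 members and raised 5 (13.6% and 13% of all genes). EXO1, the exonuclease of long-range resection, had 8.56, 8.56 and 8.62 in Rapamycin, against 9.07, 9.17 and 9.32 in DMSO, with no overlap (difference -0.61, SE 0.07, limma adjusted p = 4.74e-12). FANCB, XRCC3 and UBE2T fell by 0.48, 0.46 and 0.46 on the log2 scale. The kinase ATM rose by 0.61 (7.49, 7.43 and 7.74 in Rapamycin, against 6.71, 6.97 and 7.18 in DMSO) and the helicase BLM by 0.37. Among the 10 S phase genes 7 were lower and 1 higher with Rapamycin, and their part in the members' falls was not tested. Geldanamycin at 0.032 uM lowered 13 members and raised none (9.75% and 6.73% of all genes), by 0.39 for ATRIP and 0.36 for RAD51D at most, and 6 of 10 S phase genes were lower with it.

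Mitomycin C at 2.56 uM raised 10 members at 6 h and lowered none, where 1.88% of all genes were higher and 1.09% lower. The median member difference was 0.13, where all genes had -0.01, and 33 of the 42 differences were above 0. EXO1 had 9.65, 9.65 and 9.68 with Mitomycin C, against 9.07, 9.17 and 9.32 in DMSO, a 1.38-fold rise (difference 0.47, SE 0.07, limma adjusted p = 4.75e-07). RAD54L had 8.24, 8.57 and 8.26 with Mitomycin C and 7.69, 7.87 and 8.10 in DMSO, a rise of 0.47 (SE 0.10, limma adjusted p = 0.000492). FANCB, a scaffold of the Fanconi core, had 8.07, 8.10 and 7.74 with Mitomycin C and 7.38, 7.58 and 7.69 in DMSO, a rise of 0.44 (SE 0.09). MSH6, a mismatch sensor, had 10.29, 10.42 and 10.46 with Mitomycin C and 10.03, 10.08 and 10.12 in DMSO, a rise of 0.32. In each of these 4 genes every treated well lay above every DMSO well, and likewise for the other 6, RAD54B (0.28), BLM (0.25), RMI2 (0.23), FANCG (0.22), RPA2 (0.20) and RAD51C (0.20). All 10 were picked by their call on these same values. None of the 7 checkpoint kinases and partners and none of the 3 crosslink nuclease genes was called. In the same wells 10 of 10 S phase genes, with a median of 0.56, and 4 of 6 p53 targets, with a median of 0.55, were called higher, and the part of either list in the members' rise was not tested. In bulk wells fewer or more cells of a cycle stage and less or more RNA per cell cannot be told apart. Without the second replicate of every compound the number called fell to 5, and without either other replicate to 6.

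**Figure D3:**
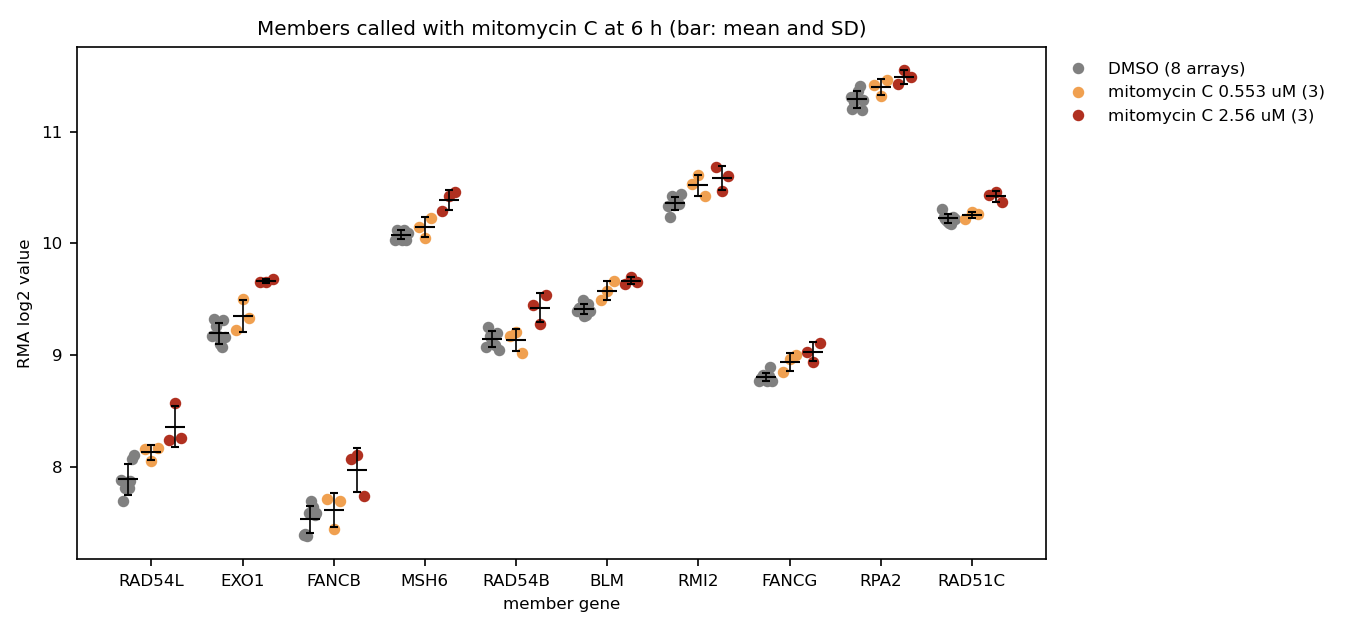
RMA log2 values of the 10 members called with Mitomycin C at 6 h, 1 point per array, for DMSO (8 arrays), 0.553 uM and 2.56 uM (3 arrays each), with mean and SD. The 2.56 uM points lie above all DMSO points in all 10 genes, and the 0.553 uM points overlap the DMSO points in some genes and the 2.56 uM points in others.

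The topoisomerase II poisons lowered a few members and raised RAD51C. With Doxorubicin at 0.101 uM 7 members fell and 1 rose (3.74% and 3.4% of all genes). SLX4 had 8.26, 8.41 and 8.44 in Doxorubicin, against 8.58, 8.82 and 8.87 in DMSO (difference -0.41, SE 0.06, limma adjusted p = 1.08e-06). MSH6, UBE2T, WRN, RAD54B, NBN and RPA1 fell by 0.13 to 0.29 on the log2 scale. With Etoposide at 0.812 uM MSH6 had 9.72, 9.74 and 9.80, against 10.03, 10.08 and 10.12 in DMSO (difference -0.32, limma adjusted p = 0.000129), and UBE2T and RAD54B differed by -0.25 and -0.21. With the mean of all its probe sets the RAD54B difference was 0.05. The second Etoposide group, labelled 0.811 uM and so nearly a repeat, called 8 members (6.34% of all genes), among them the same 4: MSH6 -0.40, UBE2T -0.30, RAD54B -0.25 and RAD51C 0.25. The direct difference of the 2 Etoposide groups called no member in limma (0.214% of all genes). Of the 6 p53 targets 5 rose with Doxorubicin and 4 with Etoposide at 0.812 uM. Without the second replicate of every compound the count of members with Doxorubicin fell to 3, and without the first to 5.

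RAD51C, a recombinase paralog found in both paralog complexes, rose with these poisons and with Mitomycin C. It had 10.52, 10.61 and 10.36 in Doxorubicin, 10.45, 10.50 and 10.53 in Etoposide at 0.812 uM and 10.43, 10.46 and 10.37 in Mitomycin C at 2.56 uM, against 10.17, 10.22 and 10.31 in DMSO. The differences were 0.27, 0.27 and 0.20 (limma adjusted p = 0.000354, 0.000554 and 0.0361), and no treated well overlapped a DMSO well. With Camptothecin its direction differed by concentration, with 10.50, 10.46 and 10.53 at 0.01 uM (difference from DMSO 0.27) and 10.22, 10.02 and 9.99 at 0.31 uM (-0.15), and both differences were called. It also rose with Trichostatin A and Cycloheximide and fell with H-7 and Geldanamycin, so RAD51C and FANCI were the members called higher with most compounds, 5 each. RAD54B was the one called lower with most, 7, then FANCL with 6. This order depended on the probe sets used. With the mean of all probe sets 3 of the 5 rises of RAD51C, 2 of the 5 of FANCI, 4 of the 7 falls of RAD54B and all 6 of FANCL stayed called, and FANCI with Monastrol (-0.03) and Rapamycin (-0.02) and RAD54B with Etoposide (0.05) changed sign. The spread of a member's 14 differences ran from an SD of 0.14 (PMS2) to 0.50 (RAD50).

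Doxorubicin and Aclacinomycin A are both anthracyclines, which differ among other things in their sugars, a single daunosamine in Doxorubicin and a chain of sugars in Aclacinomycin A. At 0.101 against 0.105 uM and 6 h, the 2 compounds differed in 4 members (3.8% of all genes), and this was the only pair of compounds compared directly. RAD51C was higher by 0.38 in Doxorubicin, with 10.52, 10.61 and 10.36 against 10.17, 9.99 and 10.20 in Aclacinomycin A (SE 0.07, limma adjusted p = 5.18e-05). MSH6 was lower, with 9.73, 9.79 and 9.83 in Doxorubicin against 10.13, 10.18 and 10.27 in Aclacinomycin A (difference -0.41), as were SLX4 (-0.40) and UBE2T (-0.23). The count was 2 without replicate 1, or without replicate 2, of every compound. The wells of the 2 compounds did not overlap for RAD51C, MSH6, SLX4 or UBE2T. They also did not overlap for some members that were not called, such as TOPBP1, BRCA1 and FANCL. The other 38 members were not called, with differences from -0.30 to 0.20, which does not show that the compounds act alike on them.

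The remaining compounds changed few members at 6 h. With Monastrol at 100 uM 6 rose and 3 fell (4.61% and 2.99% of all genes). MSH6 had 9.81, 9.73 and 9.72 in Monastrol, against 10.03, 10.08 and 10.12 in DMSO (difference -0.32, limma adjusted p = 0.000164), and EXO1 and TOPBP1 differed by -0.28 and -0.24. ERCC4, CHEK2, ERCC1, FANCI, SLX4 and NBN rose by 0.19 to 0.27. With the mean of all probe sets the FANCI difference was -0.03. BRIP1 rose by 0.42 with Blebbistatin at 100 uM (5.62, 5.58 and 5.31, against 4.82, 5.09 and 5.24 in DMSO) and FANCI by 0.25 with Vincristine at 0.01 uM. The Methotrexate calls at 6 h, RMI2 at 0.17, ERCC1 at 0.20 and RAD51AP1 at -0.33, rest on wells that overlap DMSO. One Methotrexate well of replicate 3 stood apart, with a RAD51AP1 value of 6.69 where the other 5 wells had 7.84 to 8.13. Of the pair of arrays numbered 3, 1 had an ACTB 3' minus 5' difference of 0.9, under the low-signal limit, against 0.13 to 0.21 in the other 5. Its GAPDH difference was 0.5, against -0.12 to 0.09. The part of RNA quality in these values was not tested. With Methotrexate no member was called without the wells of every compound numbered 1, or without those numbered 3. None was called without DMSO replicate 6 either, and 1 without DMSO replicate 4.

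The direct differences between the 2 concentrations of a compound called 90 of 546 pairs at 6 h. Camptothecin at 0.31 against 0.01 uM differed in 36 members (39.2% of all genes), 30 lower and 6 higher, and at 0.01 uM alone only EXO1 (0.38), FANCE (0.28) and RAD51C were called, all higher (3.65%). EXO1 had 9.07, 9.17 and 9.32 (lowest, median and highest) in DMSO, 9.50, 9.50 and 9.72 at 0.01 uM and 9.22, 9.13 and 9.21 at 0.31 uM. The wells at 0.01 uM lay above all DMSO wells. H-7 at 20.2 against 12.4 uM differed in 22 (30.8%), 20 of them lower. Cycloheximide at 5 against 0.264 uM differed in 21 (21.2%), 15 lower and 6 higher, and the low concentration raised 10 members and lowered none (9.76%, with 5.32% higher and 4.44% lower). Those 10 were led by XRCC3 (0.40), EXO1 (0.39), FANCI (0.37), CLSPN (0.37) and ATR (0.37). At the lower concentrations together 93 of 546 pairs were called at 6 h, 41 higher and 52 lower. Trichostatin A at 0.114 uM called 28 members (44.3%), H-7 at 12.4 uM 26 (33.5%) and Rapamycin at 13.8 uM 15 (17.8%), while Monastrol at 50 uM called 2 (1.47%) and Blebbistatin at 10 uM called RMI1 alone (2.63%). Doxorubicin at 0.03 uM (0.548%), Aclacinomycin A at 0.036 uM (0%), Geldanamycin at 0.001 uM (0.0822%) and Vincristine at 0.005 uM (2.61%) called none in limma. Mitomycin C at 0.553 uM also called no member in limma (0.938%), and the direct difference between its concentrations called RAD54B alone (0.565%), so the rises at 2.56 uM were not shown to differ from the lower concentration for the other 9. Geldanamycin's concentrations differed in 6 members (9.9%), all lower, and Rapamycin's in 4 (6.16%). The 2 concentrations of Trichostatin A (0% of all genes), Monastrol (0.0329%), Blebbistatin (0.186%), Vincristine (0.894%), Doxorubicin (1.5%) and Aclacinomycin A (0.011%) differed in no member in limma.

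The medium wells were compared with DMSO as a check on the vehicle. At 6 h 19 members differed (25.5% of all genes), 8 higher and 11 lower, with 2 medium wells. EXO1 had 8.54 and 8.82 in medium, against 9.07, 9.17 and 9.32 in DMSO (difference -0.52, limma adjusted p = 1.94e-07), and FANCI had 10.28 and 10.36 in medium, against 9.67, 9.85 and 9.98 in DMSO (difference 0.50). The medium and DMSO wells did not overlap for either gene. At 24 h medium called no member in limma over all arrays (0.713%), and 11 once low-signal arrays were left out (20.2%).

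At 12 h the fit on all arrays called 13 of 588 pairs at the higher concentrations, 6 higher and 7 lower, with a median SE of a member's difference of 0.25 to 0.32 against 0.06 to 0.07 at 6 h. BRCA1 was lower with Camptothecin (-1.14, limma adjusted p = 0.000378, 9.12% of all genes called) and with H-7 (-0.995, 3.32%), and RMI1, a partner of BLM in dissolving recombination intermediates, was higher with Camptothecin (0.77), H-7 (0.82) and Cycloheximide (0.66, 2.93%), as at 6 h. The other pairs were XRCC3 higher and ATM lower with Camptothecin, RAD51C and FANCB higher with Trichostatin A (10.5%), ATM lower with Doxorubicin (3.6%), and PALB2, ERCC4 and WRN lower with Blebbistatin (3.57%), and in the Doxorubicin and Blebbistatin groups all 3 wells were low-signal. Mitomycin C called none with all arrays, while without low-signal arrays, with 2 treated and 4 DMSO wells, it called 13 members, all higher (1.9% of all genes). RAD54L, at 8.36, 7.53 and 8.38 in the 3 Mitomycin C wells, the second of them low-signal, gave 1.06 (SE 0.22, limma adjusted p = 0.00147). RAD51AP1 (0.94), FANCI (0.85), RAD54B (0.81), FANCB (0.79), BLM (0.78), EXO1 (0.74) and RAD51C (0.72) followed. In all, 101 pairs over the 11 compounds that kept a well were called without the low-signal arrays, many with compounds that changed many genes. H-7 called 19 members (25.9% of all genes), Trichostatin A 17 (31.3%), Cycloheximide 16 (24.3%) and Camptothecin 14 (27.8%). Monastrol called 8 (5.83%) and Geldanamycin 3 (9.62%), while Methotrexate (0.175%) and Vincristine (0.855%) called none in limma. Etoposide and Rapamycin kept 1 well each, with the spread taken from the other groups.

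At 24 h, with all arrays, Methotrexate was, at the higher concentrations, the compound with which members rose, 5 of 42 with none lower (4.74% of all genes, 3.42% higher). RAD51AP1, which stimulates strand exchange, had 8.58, 8.74 and 8.80 (lowest, median and highest) in Methotrexate, against 5.85, 7.45 and 7.80 in DMSO, a 2.89-fold rise (difference 1.53, SE 0.39, limma adjusted p = 0.00608). EXO1 had 10.22, 10.25 and 10.28 in Methotrexate and 8.66, 9.01 and 9.11 in DMSO, a rise of 1.27 (SE 0.23, limma adjusted p = 5.74e-05). CLSPN, the adaptor between ATR and CHEK1, had 6.92, 6.97 and 7.18 in Methotrexate and 5.60, 6.13 and 6.81 in DMSO, a rise of 0.83. BRIP1 rose by 0.77, also without overlap, and XRCC2 by 0.51, where the lowest Methotrexate well (6.66) lay under the highest DMSO well (6.69, replicate 7). The 6 Methotrexate wells were all of normal signal and close together. With wells of the same number averaged to 3 samples, the count of members fell to 1. All 6 p53 targets rose with Methotrexate at 24 h, with a median of 2.09, and 1 of the 10 S phase genes did; the part of either list in the members' rise was not tested.

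**Figure D4:**
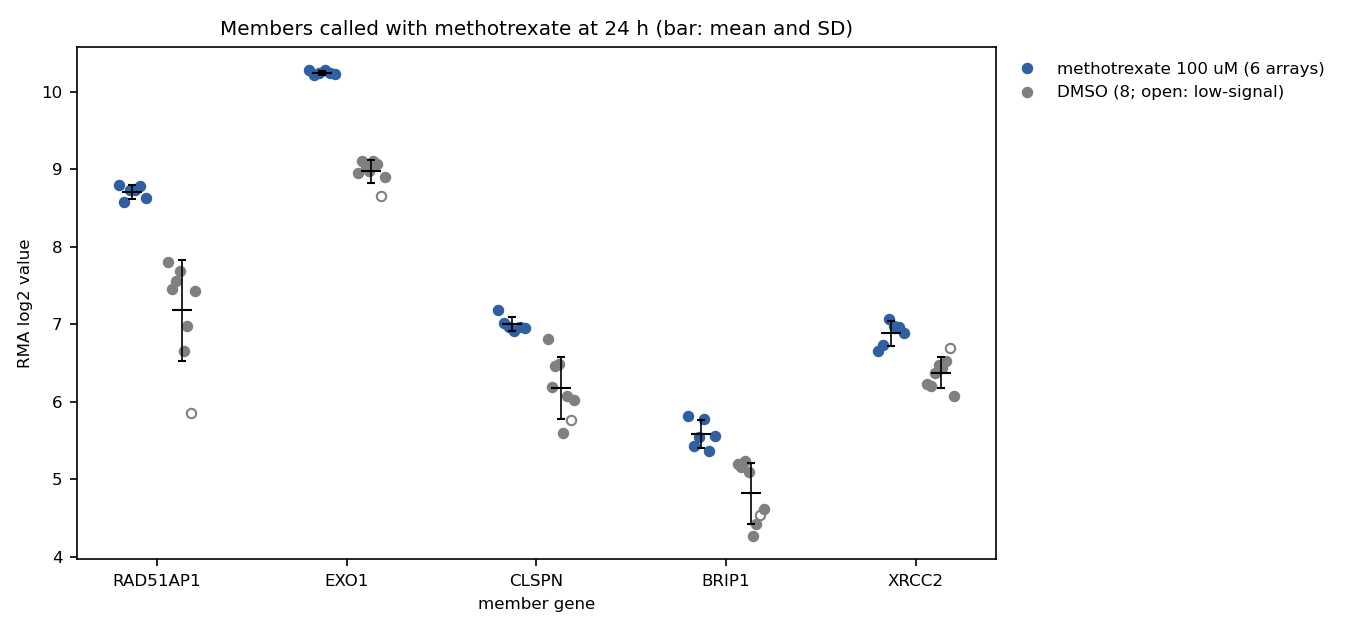
RMA log2 values at 24 h of the 5 members called with Methotrexate, 1 point per array, for Methotrexate (6 arrays, left) and DMSO (8 arrays, right; the open point is the low-signal array), with mean and SD. The groups are apart in RAD51AP1, EXO1, CLSPN and BRIP1, and meet in XRCC2 at 6.66 and 6.69.

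At the higher concentrations of the other compounds members only fell at 24 h in the fit on all arrays, 58 pairs over 8 of the 14 compounds. The counts were 11 with Mitomycin C (25.8% of all genes), 9 with Camptothecin (8.21%), 8 with Doxorubicin (6.07%), 8 with H-7 (20.7%), 7 with Cycloheximide (13.5%), 7 with Trichostatin A (5%), 7 with Rapamycin (2.49%) and 1 with Monastrol (1.21%). With Mitomycin C, H-7 and Cycloheximide the share of members called was near that of all genes. Etoposide at 0.812 uM (1.45%), Blebbistatin (0.0493%), Vincristine (0.0439%), Geldanamycin (0.0219%) and Aclacinomycin A (0%) called none in limma. The Etoposide group labelled 0.811 uM, whose first well was low-signal, called 11 members, all lower (3.71% of all genes called, 2.74% lower), with a median of -0.70, led by BARD1 (-1.72), RAD54B (-1.38) and FANCB (-1.33). Among the other lower concentrations, H-7 at 12.4 uM, where all 3 wells were low-signal, called 30 members lower and BRIP1 higher (59.1%), and Doxorubicin at 0.03 uM called CLSPN lower (1.11%). FANCI, which the core complex marks with ubiquitin, had 7.91, 8.81 and 8.43 in the 3 Camptothecin wells, the first of them low-signal, against 10.02, 10.09 and 10.12 in DMSO (difference -1.69, SE 0.30, limma adjusted p = 1.52e-05), and 9.04, 8.92 and 8.88 in Doxorubicin (-1.13). BLM had 7.96, 8.14 and 8.15 in Doxorubicin and 8.94, 9.21 and 9.38 in DMSO, a difference of -1.12 (limma adjusted p = 0.00201). Neither gene's treated wells overlapped DMSO. Several of these counts changed when a replicate number was left out of every compound at once. Without replicate 1 Doxorubicin had 4, Cycloheximide 4 and Trichostatin A 1. Without replicate 3 H-7 had 0. With all arrays 7 of the 10 S phase genes also fell in Doxorubicin and 4 in Camptothecin at 24 h.

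The low-signal arrays set the spread of the 24 h fit. Without them the median SE of a member's difference was 0.07 to 0.14, against 0.24 to 0.31 with them, and the counts were larger. Doxorubicin, whose 3 wells were all kept, called 32 members (35.7% of all genes), 31 lower (19.9%) and RAD51C higher. Camptothecin, with 2 wells, lowered 28 and raised ERCC4 (34%, 15.4% lower). Etoposide at 0.812 uM lowered 25 and raised RAD51C (25%, 13.6% lower). Rapamycin lowered 29 (27.7%, 13.2% lower), Trichostatin A 27 (31.2%, 15.5% lower) and Monastrol 27 (32.8%, 17.9% lower), with 2 wells each. Blebbistatin, with 3 wells, lowered 26 and raised none (14.2%, 8.48% lower), and Vincristine lowered 24 and raised RAD51C (9.23%, 5.59% lower). Cycloheximide kept 1 well, with its spread taken from the other groups, and lowered 17 and raised RAD51C, WRN and RMI2 (34.8%, 15.5% lower). H-7, with 2 wells, lowered 9 and raised FANCI and RMI2 (20.8%, 11.1% lower). Geldanamycin lowered 5 and raised none (5.2%, 2.85% lower), and Aclacinomycin A changed none in limma (0%).

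**Figure D5:**
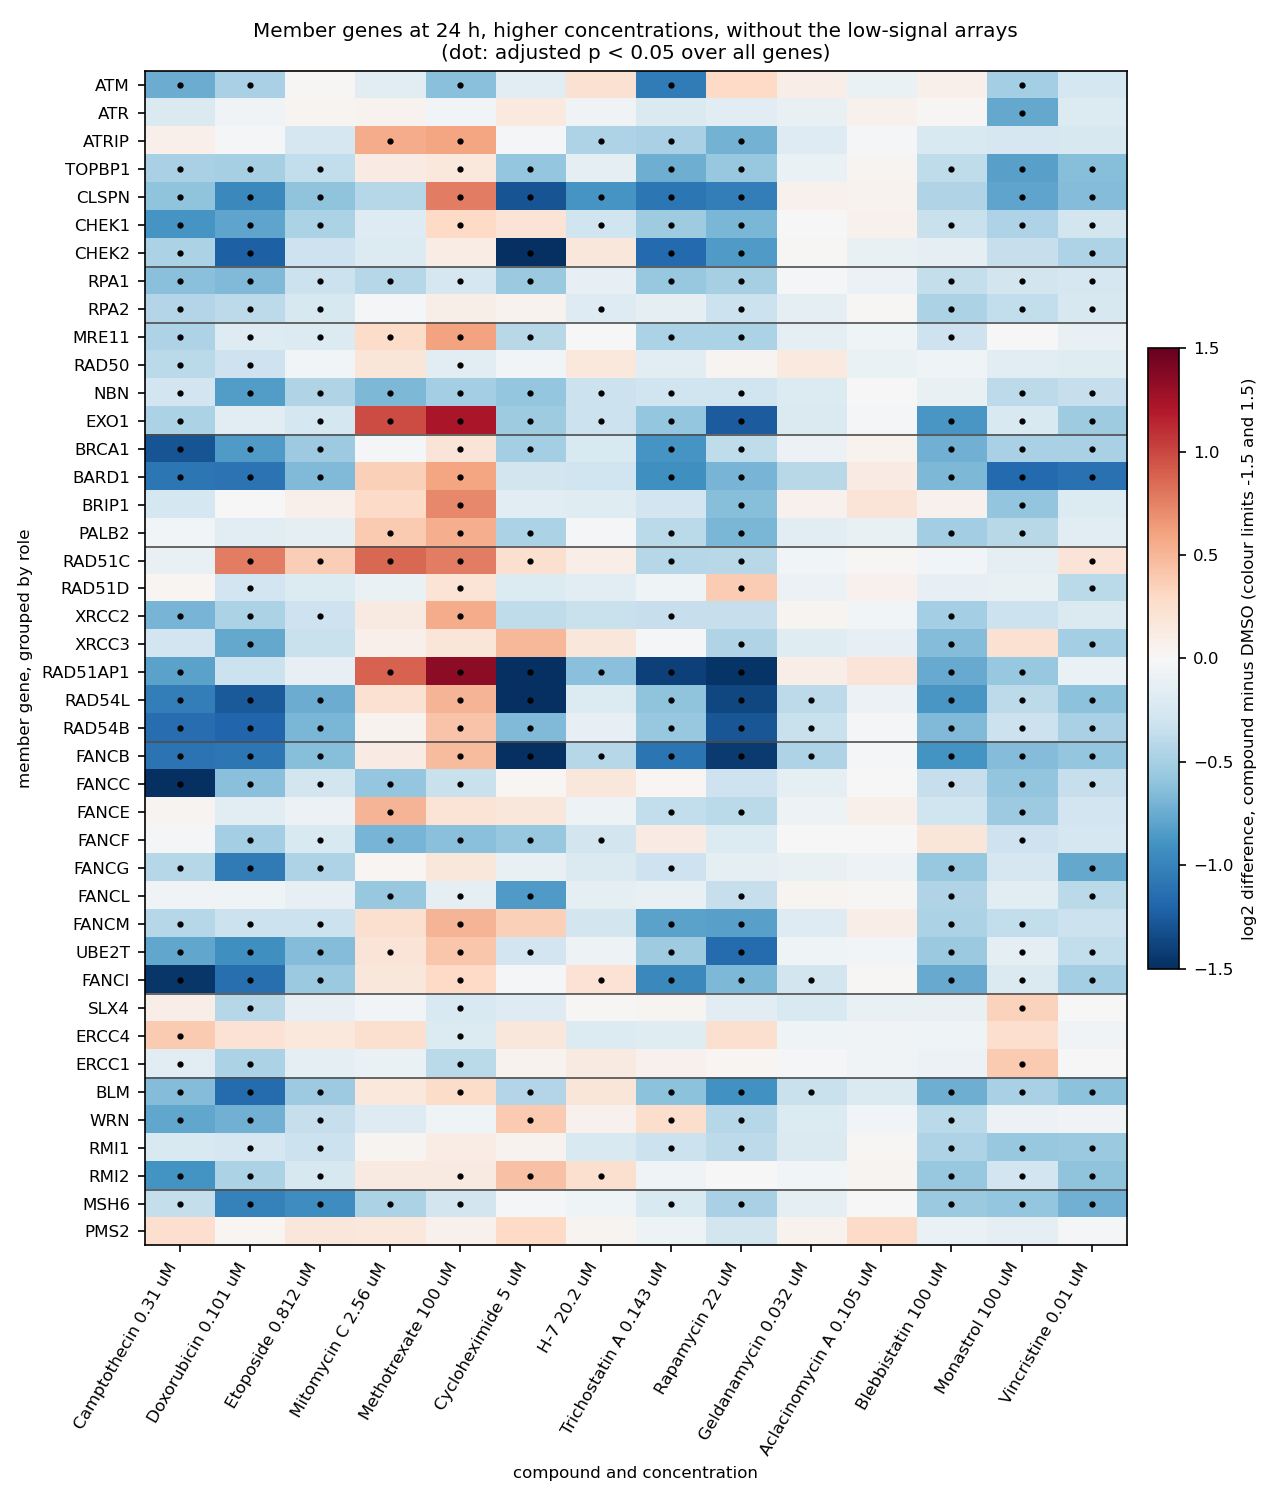
Log2 difference, compound minus DMSO, of the 42 members (rows, grouped by role) at 24 h without the low-signal arrays, for the higher concentrations (columns); a dot marks an adjusted p under 0.05. Most columns are blue, the Methotrexate column has more red than blue cells, with EXO1 at 1.23, the Aclacinomycin A column is near 0, and RAD51C is red with Doxorubicin, Etoposide, Mitomycin C and Methotrexate.

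Without these arrays some members fell with most compounds at 24 h, in comparisons that all use the same 7 DMSO wells. FANCB, NBN and RPA1 were lower with 11 of 14 compounds and RAD54L, RAD54B, BLM and MSH6 with 10. The share of all genes lower with as many compounds was not counted, so this is not shown to be particular to the members. RAD54L, shown with MSH6 and BARD1 after their values were seen, had 6.75, 6.60 and 6.54 in Doxorubicin, 7.07, 7.19 and 6.78 in Blebbistatin and 7.17, 7.28 and 6.98 in Etoposide, against 7.42, 7.89 and 8.09 over all 8 DMSO wells. The differences without low-signal arrays were -1.26, -0.88 and -0.75 (limma adjusted p = 2e-14, 3.74e-08 and 6.14e-07), and every treated well was under every DMSO well. MSH6 had 9.48, 9.37 and 9.50 in Etoposide and 9.72, 9.59 and 9.68 in Vincristine, against 10.16, 10.37 and 10.49 in DMSO, with differences of -0.93 and -0.72. BARD1, the obligate partner of BRCA1, had 6.30, 6.44 and 6.52 in Vincristine and 7.18, 7.64 and 7.97 in DMSO, a difference of -1.12 (limma adjusted p = 1.04e-07). In Camptothecin FANCC (-1.58), FANCI (-1.45) and BRCA1 (-1.30) were lowest, and in Rapamycin RAD51AP1 (-1.47), FANCB (-1.44) and RAD54L (-1.37). PMS2 was called with no compound, and ATR, ERCC4, SLX4, BRIP1 and RAD50 with at most 3.

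Methotrexate and Mitomycin C had the most members higher among these 14 comparisons, though with Mitomycin C the share of members higher was near that of all genes. Without the low-signal DMSO well Methotrexate raised 22 members and lowered 11 (35.6% of all genes, 15% higher and 20.6% lower). All 4 genes of the BRCA1 complexes rose and 6 of the 7 recombinase paralogs and partners, while the 3 crosslink nuclease genes fell. RAD51C had 10.93, 10.98 and 11.07 in Methotrexate, against 10.08, 10.24 and 10.32 in DMSO, a rise of 0.77 (SE 0.05, limma adjusted p = 3.41e-21). ATM had 6.03, 6.32 and 6.47 in Methotrexate and 6.32, 6.90 and 7.32 in DMSO, a fall of 0.62 on the log2 scale, though the highest Methotrexate well overlapped the lowest DMSO well, and FANCF, NBN and ERCC1 fell by 0.63, 0.51 and 0.40.

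For Mitomycin C the second well at 24 h was low-signal, and the result depended on the arrays used. With all arrays 11 members were lower and none higher. Without any low-signal array, of DMSO and the other compounds as well, 8 were higher and 6 lower (29.8% of all genes, 14.2% higher and 15.6% lower). Without the second replicate of every compound 1 member was called with Mitomycin C. EXO1 had 10.07, 8.16 and 9.94 in the 3 Mitomycin C wells, against 8.66, 9.01 and 9.11 in DMSO, and its difference was 0.41 with all wells and 0.98 without low-signal arrays (limma adjusted p = 2.44e-15). RAD51C had 11.05, 8.42 and 11.12, against 10.08, 10.24 and 10.32 in DMSO, -0.02 with all wells and 0.86 without low-signal arrays. In both genes the low-signal well lay below all DMSO wells and the other 2 above them. RAD51AP1, ATRIP, FANCE, PALB2, MRE11 and UBE2T were the other members higher without the low-signal arrays, and FANCF (-0.70) and NBN (-0.67) the lowest.

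RAD51C rose with 6 of the 14 compounds at 24 h without the low-signal arrays. It had 11.02, 11.07 and 10.86 in Doxorubicin (0.76, limma adjusted p = 5.94e-17) and 10.57, 10.59 and 10.61 in Etoposide (0.37, limma adjusted p = 2.25e-06), against 10.08, 10.24 and 10.32 in DMSO, with no overlap, while 31 and 25 members fell in the same wells. In the fit on all arrays these differences were of the same size (0.76 and 0.37) and were not called (limma adjusted p = 0.261 and 1). Doxorubicin against Aclacinomycin A at 24 h called CLSPN (-1.02) and WRN (-0.68), both lower in Doxorubicin, with all arrays (3.18% of all genes), and 29 members without low-signal arrays (30.8%).

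The response at 24 h minus the response at 6 h was tested as a difference, with all arrays. With Methotrexate it was called for EXO1 (1.11, limma adjusted p = 0.00128) and RAD51AP1 (1.86, limma adjusted p = 0.00508), both higher at 24 h (2.51% of all genes). With Trichostatin A it was called for 8 members (9.81%), all lower at 24 h, led by FANCM (-1.79) and FANCB (-1.64), which had risen at 6 h. FANCI with Camptothecin (-1.43, 1.92%) and with Doxorubicin (-1.15, 1.12%) and CLSPN with Cycloheximide (-1.48, 3.65%) were lower at 24 h. Replicate 1 of Trichostatin A and of Camptothecin, and replicates 1 and 3 of Cycloheximide, were low-signal at 24 h and are among the arrays used. With H-7 SLX4 (1.33) and MRE11 (1.06) were less low at 24 h, and EXO1 (-1.11) and PALB2 (-1.26) lower (12.7%). The third H-7 well at 24 h was low-signal, and without the low-signal arrays the 24 h difference from DMSO was -0.33 for EXO1 and -0.02 for PALB2, against -0.99 and -0.88 with them. Mitomycin C called 12 (12.8%), all lower at 24 h, and its low-signal well is among the arrays behind them. Each time had its own arrays, so time cannot be told apart from any difference between those sets of arrays.

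Other genes of the same pathways, from lists that share no gene with the members, are given for comparison. With Camptothecin at 6 h 10 of 19 measured recombination and crosslink repair genes outside the list fell and 4 rose. Of 8 end-joining genes 5 fell and 1 rose, where 19.9% of all genes were lower and 27% higher. With H-7 15 of these 19 fell and 3 rose, while 5 of 8 end-joining genes rose and 2 fell. Of all genes 27% were lower and 23% higher with H-7. With Mitomycin C at 6 h 2 of 19 rose, as did 4 of 15 other checkpoint and break signalling genes, with none lower. None of the 8 end-joining genes was called, and of all genes 1.88% were higher and 1.09% lower.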

How the data were processed

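Total RNA of single wells was hybridised to 282 arrays, 94 at each of 6, 12 and 24 h, grouped by the labelled compound, concentration and time. The deposited values are log2 intensities per probe set, which the authors made with RMA, per the submitters' processing notes; its version, and over which arrays it was run, are not given in the sources used here. Of 49386 probe sets 45259 carried 1 gene symbol in the platform annotation, which gave 18239 genes, each read by its probe set with the highest mean.

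Groups were compared with limma 3.58.1 in R 4.3.3 (1 mean per group over all arrays of a time, empirical Bayes with a trend), Benjamini-Hochberg adjustment over all genes and a threshold of 0.05; the time difference used all 282 arrays. The fit was tested on simulated data. Members with values per array were those with the largest rises and falls past the threshold in a comparison, up to 5 each way, and those called most or least often; others are named with a difference alone. The members and lists were chosen with earlier results of these data known. Arrays of the same replicate number did not deviate together (mean correlation 0.0009, 0.0065 and 0.0136 at the 3 times), so the numbers do not pair them. Alternatives were a repeated quantile normalization, a filter on low values, the mean of all probe sets, fits on only the arrays compared and a replicate block. Others left out low-signal arrays or averaged Methotrexate arrays of the same number. A further set left out 1 replicate number at a time, of every compound together or of DMSO. The number of arrays limits the precision. Tables and figures used Python 3.11.15. Promoter windows were taken from RefSeq (GRCh38.p14).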

Additional observations from a re-analysis of the deposited data

Results flagged for a closer look

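In Methotrexate at 6 h single wells lay far from the other 5. Of the pair of wells numbered 3, 1 was low for TOPBP1 (9.29, others 9.85 to 10.02), EXO1 (9.12, others 9.37 to 9.46), RAD51AP1 (6.69, others 7.84 to 8.13) and UBE2T (10.26, others 10.68 to 10.80). Likewise 1 of this pair was high for RAD54L (8.49, others 7.84 to 7.95) and FANCC (7.71, others 7.17 to 7.35). A well numbered 1 was low for RAD51C (9.83, others 10.19 to 10.32) and FANCF (7.90, others 8.22 to 8.30). At 24 h a Methotrexate well numbered 1 had 8.68 for ATRIP, where the others had 8.78 to 8.83.

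Among DMSO wells at 6 h, replicate 7 was high for RPA1 (11.38), RAD50 (8.72) and FANCG (8.89). At 24 h the low-signal replicate 7 was low for ATR (5.87), ATRIP (7.27), RPA1 (10.88), EXO1 (8.66) and FANCM (5.81), replicate 3 was high for RAD50 (8.85) and replicate 5 for ERCC1 (9.75). With 42 members tested in each group, 8 were found in Methotrexate and 3 in DMSO at 6 h, and 1 and 7 at 24 h, where chance gives about 1 in 20.

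The response at 24 h minus that at 6 h was called for 2 members with Methotrexate, 1 with Camptothecin, 1 with Doxorubicin, 1 with Cycloheximide, 12 with Mitomycin C, 8 with Trichostatin A and 4 with H-7.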

How the results depend on the processing

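At 6 h, of 180 called pairs the direction was reversed for 5 with the mean of all probe sets (RAD54B with Etoposide 0.050, FANCC with H-7 -0.16, FANCI with Monastrol -0.027 and with Rapamycin -0.015, MRE11 with Trichostatin A 0.048), and 153 stayed called; 142 stayed called with the replicate block. Methotrexate at 6 h, with 3 members called, had 0 with only the arrays compared, 0 with the replicate block and 1 with same-number arrays averaged.

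The counts in this section are given without the share of all genes under the same fit, so they show nothing particular to the members. At 24 h counts depended on the arrays used to set the spread. With only the arrays compared they were 27 for Camptothecin, 27 for Doxorubicin, 16 for Etoposide, 0 for Mitomycin C, 28 for Methotrexate, 16 for Cycloheximide, 0 for H-7, 19 for Trichostatin A, 69 for the other 6 compounds, 44 for concentration differences, 33 for Doxorubicin minus Aclacinomycin A and 3 for medium; at 12 h 33 and for the time difference 178. Without low-signal arrays they were 29 for Camptothecin, 32 for Doxorubicin, 26 for Etoposide, 33 for Methotrexate, 20 for Cycloheximide, 28 for Trichostatin A, 115 for the other 6, 111 for concentration differences, 29 for the anthracyclines and 11 for medium, 101 at 12 h and 233 for the time difference. A repeated quantile normalization gave 2 for Etoposide, 9 for Methotrexate, 17 for the other 6, 29 for concentration differences, 7 for the anthracyclines and 20 at 12 h. The mean of all probe sets gave 14 for Doxorubicin, 8 for Methotrexate, 11 for Trichostatin A, 14 for the other 6, 6 for the anthracyclines and 27 at 12 h. The replicate block gave 3 for Doxorubicin, 6 for Mitomycin C, 2 for Methotrexate and 2 for H-7 and changed no other count, beyond the 6 h one above, by over 1.5 times, and same-number averaging gave 1 for Methotrexate.

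Leaving out 1 replicate at a time gave 3 to 9 for Doxorubicin at 6 h, 5 to 11 for Mitomycin C at 6 h, 0 to 4 for Methotrexate at 6 h, 4 to 9 for Doxorubicin at 24 h, 1 to 23 for Mitomycin C at 24 h, 4 to 7 for Cycloheximide at 24 h, 0 to 21 for H-7 at 24 h, 1 to 13 for Trichostatin A at 24 h, 24 to 42 for the other 6 at 6 h, 4 to 10 for the other 6 at 24 h, 3 to 66 for all 14 at 12 h, 8 to 46 for concentration differences at 24 h, 2 to 4 for Doxorubicin minus Aclacinomycin A at 6 h and 0 to 2 for Doxorubicin minus Aclacinomycin A at 24 h. At 24 h the difference without 1 replicate was -1.35 to 0.0225 for PALB2 with H-7 (highest without drug replicate 3), and with Mitomycin C -1.60 to 0.029 for RPA2, -2.42 to 0.079 for RAD54B and -1.57 to 0.0275 for FANCG (highest without drug replicate 2, the low-signal well). Without the low-signal arrays RAD54B became 0.049 and FANCG 0.034. The cause was not tested. Without low-signal arrays Aclacinomycin A, Blebbistatin and Doxorubicin had no 12 h value and H-7 no concentration difference at 24 h.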
